A study of Mus musculus with 2 samples.

Results

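Integrins are the cell surface receptors that hold a cell to its matrix and to other cells, and the genes described here are their chains and the cytoplasmic adaptors that switch them on. The set was taken by gene symbol: 18 alpha chains, 8 beta chains, the talins Tln1 and Tln2, the kindlins Fermt1, Fermt2 and Fermt3, and the kinase-like linker Ilk. All 32 were found among the 27179 genes of the deposited files. They were read in progenitors of group 2 innate lymphoid cells (ILC2), the tissue-resident lymphocytes that make type 2 cytokines. Sorting was from marrow of C57BL/6 mice aged 8 weeks, and the labels name no other genotype and no treatment. The 1 group held 2 libraries, each made from a pool of 8 mice, here named pool 1 and pool 2 by accession. The heading of the value column in each file names the code of the other sample, so if the headings are right, the names of the pools exchange in every difference given here. The labels do not list the sorting antibodies, so it is not known whether an integrin chain served as a sorting marker.

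An integrin is an alpha chain and a beta chain in a heterodimer, and neither chain reaches the surface well without a partner. Talin and kindlin bind the short cytoplasmic tail of the beta chain and move the receptor into its ligand-binding form, a step known as inside-out activation. In lymphocytes, αLβ2 (LFA-1) binds ICAM proteins, α4β1 (VLA-4) binds VCAM-1 and fibronectin, α4β7 binds MAdCAM-1 on gut venules, and αEβ7 (CD103) binds E-cadherin on epithelium. α4β7 is widely used as a surface marker of early innate lymphoid precursors in the bone marrow.

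The libraries held 20216146 reads in pool 1 and 19834586 in pool 2, as recovered from the steps of the deposited values, which are in RPKM, reads scaled to gene length and library size. At this depth, 3 reads over 1 kb make 0.148 RPKM in pool 1 and 0.151 in pool 2. As the labels give each library as its own pool of mice, the spread given is that between 2 pools. Of the ILC2 marker genes, led by Ly6a and Il2rg, 15 of 15 were at 1 RPKM or more in both pools, with a sum of 4766 RPKM in pool 1 and 4773 in pool 2. Single genes of the list differed: Id2 was at 709.7 and 287 RPKM, and Il1rl1 and Tcf7 were 1.51-fold and 1.54-fold higher in pool 2. Genes of other marrow cells were also present and differed between the pools. The sum of 18 neutrophil and monocyte genes, led by S100a9 and S100a8, was 1121 RPKM in pool 1 and 2564 in pool 2. For 14 mast cell, basophil and eosinophil genes, led by Prg2 and Cpa3, the sums were 171 and 763 RPKM. The higher sum came from eosinophil granule genes such as Prg2, at 27.2 and 471 RPKM. Among the basophil and mast cell genes, Mcpt8, Prss34 and Fcer1a were lower in pool 2. Cpa3, at 37.4 and 50.2 RPKM, Ms4a2, at 0.833 and 1.75, and Gata2, at 0.915 and 1.48, were higher there. For 11 measured erythroid genes, led by Hba-a2 and Hbb-b1, the sums were 985 and 2724 RPKM. In bulk RNA such as this, a larger share of cells of a type and more RNA per cell cannot be told apart.

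The tails of the 4 most abundant beta chains are shown first, because they are where talin and kindlin bind. Each line gives the last 150 coding bases, stop codon included, spliced and written on the coding strand (GENCODE M21 transcripts, GRCm38, the mm10 build). Capitals mark in-frame codons for asparagine, proline, any residue, and tyrosine or phenylalanine (NPxY or NPxF), the known docking motif.

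Itgb7 (chr15:102216160-102216513, minus strand): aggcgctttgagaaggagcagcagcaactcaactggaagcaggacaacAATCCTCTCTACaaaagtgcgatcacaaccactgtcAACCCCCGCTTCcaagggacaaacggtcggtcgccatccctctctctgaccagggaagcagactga
Itgb2 (chr10:77564718-77565240, plus strand): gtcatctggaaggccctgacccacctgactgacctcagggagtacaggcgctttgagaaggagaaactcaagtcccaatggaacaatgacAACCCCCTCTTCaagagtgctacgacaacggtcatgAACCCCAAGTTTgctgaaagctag
Itgb3 (chr11:104665549-104667145, plus strand): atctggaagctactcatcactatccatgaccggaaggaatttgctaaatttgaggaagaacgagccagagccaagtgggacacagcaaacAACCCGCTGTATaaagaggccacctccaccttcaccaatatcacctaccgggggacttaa
Itgb1 (chr8:128726103-128732088, plus strand): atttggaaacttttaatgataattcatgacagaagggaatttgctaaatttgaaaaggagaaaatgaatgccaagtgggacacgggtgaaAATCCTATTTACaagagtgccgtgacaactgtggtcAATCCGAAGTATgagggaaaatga

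Itgb1, Itgb2 and Itgb7 each held 2 such sites and Itgb3 held 1. The other docking site of Itgb3 lacks the proline codon and was found only with the looser pattern of asparagine, any 2 residues, and tyrosine or phenylalanine. In Itgb1, Itgb2 and Itgb3 the first site began 19 residues before the end of the protein, and in Itgb7 33 residues before it, so the β7 tail runs on past its sites. Over the 18 codons from the first site on, Itgb1 and Itgb7 shared 34 of 54 bases and 12 of 18 encoded residues, and Itgb2 and Itgb3 shared 26 bases and 8 residues, the most and the fewest residues of the 6 pairs. Among all beta chains, 6 of 8 held at least 1 site in their last 50 codons and 3 of 8 held 2, against 0.815% and 0.0278% of 21606 protein-coding genes. Itgb4 and Itgb8 held none in those 50 codons, and sites in earlier codons were not counted. The Itgb4 protein has 1802 residues.

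The alpha chains share another tail motif, glycine, phenylalanine, phenylalanine, any residue and arginine (GFFxR), which lies just inside the membrane and is known to clasp the beta chain in the resting receptor. It is shown in capitals for the alpha chains of the main lymphocyte pairs, with 60 spliced coding bases around it.

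Itga4 (chr2:79325683-79326567, plus strand): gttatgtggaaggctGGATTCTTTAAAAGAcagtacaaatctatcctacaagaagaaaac
Itgal (chr7:127330228-127333499, plus strand): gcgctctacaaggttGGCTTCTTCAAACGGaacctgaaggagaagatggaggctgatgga
Itgae (chr11:73145640-73147098, plus strand): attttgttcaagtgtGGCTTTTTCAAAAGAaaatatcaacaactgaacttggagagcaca

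The motif was present in the last 80 codons of 17 of 18 alpha chains, Itga11 being the exception, and in 0.0926% of all protein-coding genes. The codons of the motif differed among the 3 sequences although the encoded pattern was the same.

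Of the 32 genes, 17 were at 1 RPKM or more in both pools, which is called detected here, against 40.5% of all genes. Their median level was 6.01 on the log2(RPKM + 0.1) scale, and the median of all detected genes was 3.86. The median of the set was 4.65 with detection at 0.5 RPKM, 4.83 in pool 2 alone and 5.89 in pool 1 alone. Itgb7, Fermt3, Itgal, Itgb2 and Itgb3 were at 100 RPKM or more in both pools, 5 of the 17, where 6.63% of all detected genes were. Tln1, Ilk, Itga4 and Itgb1 followed at 50 RPKM or more, the remaining 8 detected genes lay between 1 and 50, and 14 genes were under 1 RPKM in both pools. Itga2b alone was on different sides of the threshold in the 2 pools. The plot of levels by gene shows a gap between Itgae, at 12.3 RPKM in pool 2, and Itga4, at 59.4 in pool 1.

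**Figure D1:**
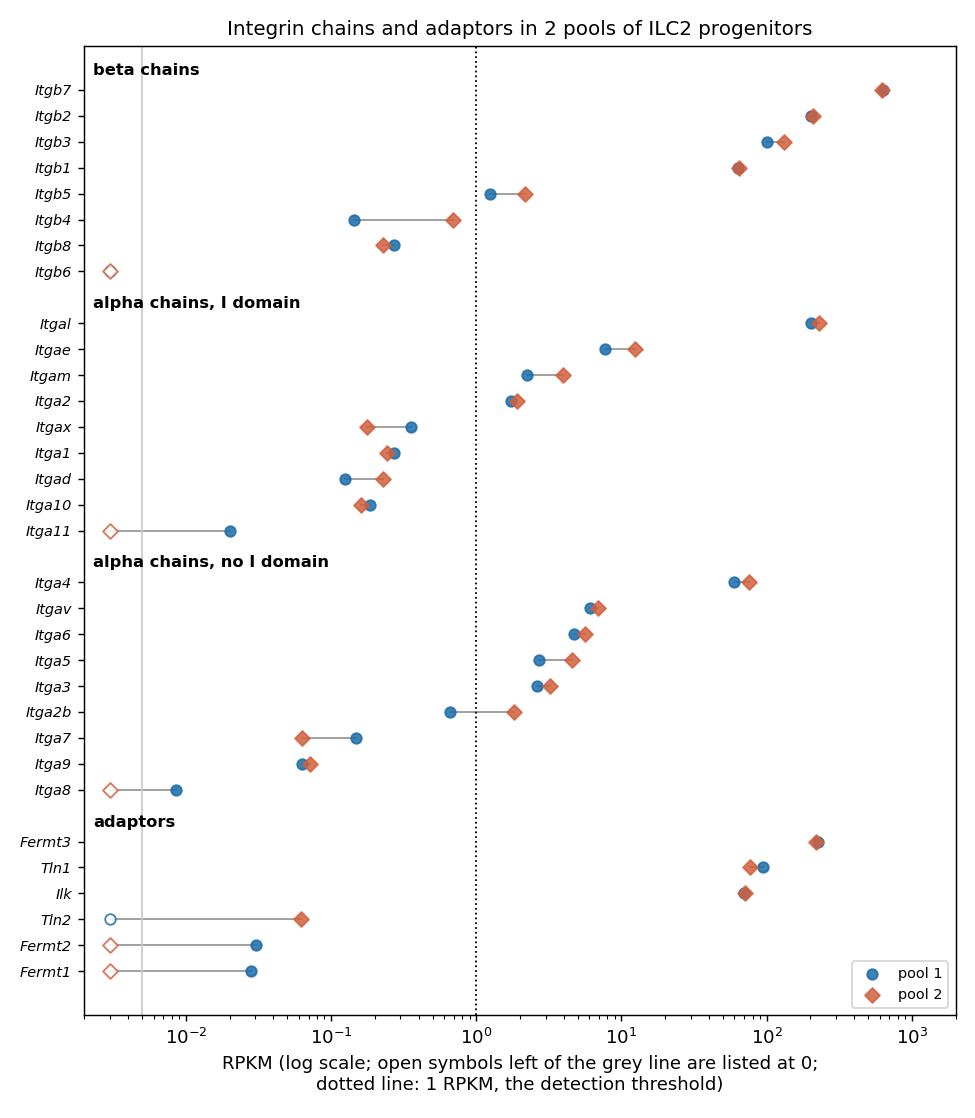
RPKM of each of the 32 genes (log axis), grouped by role, with a circle for pool 1 and a diamond for pool 2 joined by a line. Itgb7 lies highest at 629 and 626 RPKM, and Itgb6 is listed at 0 in both pools.

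Among the beta chains, the β7 chain had by far the most RNA. Itgb7 (Entrez ID 16421, chromosome 15, 102215994 to 102233405) stood at 629 RPKM in pool 1 and 626 in pool 2, a mean of 627 ± 2.15 (SD, n = 2), which placed it 78th and 72nd of all genes. Its reads numbered 33994 and 33191, so counting error is small, and the ratio of pool 2 to pool 1 was 0.995 (95% counting interval 0.980 to 1.01). It held 63.2% and 60.6% of the summed RPKM of the 8 beta chains.

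Itgb2, the common chain of the leukocyte integrins (chromosome 10, 77530329 to 77565708), was at 201 and 208 RPKM. Itgb3, best known from platelets and osteoclasts (chromosome 11, 104608000 to 104670476), was at 101 and 132 RPKM and exceeded Itgb1 in both pools, 1.57-fold and 2.03-fold. Itgb1, the chain with the most alpha partners (chromosome 8, 128685654 to 128733579), was at 64.0 and 65.0 RPKM. These 3 chains kept their order in both pools, and their ranges over the pools did not overlap.

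The other 4 beta chains were low or not found. Itgb5, which pairs with αv, was at 1.24 and 2.17 RPKM. Itgb4, the laminin receptor chain of epithelial hemidesmosomes, was at 0.144 and 0.687 RPKM from 18 and 84 reads. Itgb8, an αv partner that releases TGF-β, was at 0.272 and 0.228. Itgb6, an epithelial chain, was listed at 0, where 3 reads over its 7111 annotated exon bases would equal 0.0209 and 0.0213 RPKM. All 4 lay under Itgb1 in both pools.

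Among the alpha chains, too, few were high and many low. Itgal, the αL chain of LFA-1 (chromosome 7, 127296139 to 127335137), was at 201 and 230 RPKM and held 69.3% and 66.3% of the RNA of the 18 alpha chains. Itga4, the partner of β1 and β7 (chromosome 2, 79255426 to 79333114), was at 59.4 and 75.5 RPKM and held 20.5% and 21.8%. The third was Itgae, the αE chain of CD103, at 7.67 and 12.3 RPKM. The levels of Itgal, Itga4 and Itgae did not overlap between any of the 3 genes.

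The alpha chains without an inserted (I) domain other than α4 were low. Itgav, the vitronectin receptor chain, was at 6.07 and 6.92 RPKM, and Itga6, a laminin receptor chain, at 4.68 and 5.60. Itga5, the fibronectin receptor chain, was at 2.72 and 4.55, and Itga3, another laminin receptor chain, at 2.62 and 3.23. The platelet chain Itga2b was at 0.662 and 1.82 RPKM. Itga7, Itga8 and Itga9, chains best known from muscle, mesenchyme and smooth muscle or endothelium, stayed under 0.15 RPKM in each pool, with Itga8 at 1 read in pool 1 and none in pool 2.

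Of the 9 alpha chains with an I domain, 4 were detected. Besides Itgal and Itgae these were Itgam, the αM chain of myeloid Mac-1, at 2.24 and 3.96 RPKM, and the collagen receptor chain Itga2 at 1.72 and 1.90. The other collagen receptor chains were lower: Itga1 was at 0.273 and 0.244 RPKM, Itga10 at 0.186 and 0.160, and Itga11 at 0.020 and 0. The dendritic cell chain Itgax, which encodes CD11c, was at 0.356 and 0.175 RPKM, and Itgad at 0.125 and 0.229. Itgal, Itgam, Itgax and Itgad all pair with β2 and lie on chromosome 7, where 11.04 kb separate Itgam from Itgax and 23.3 kb Itgax from Itgad, while Itgal lies 728 kb away. Within this family Itgal exceeded Itgam 89.6-fold in pool 1 and 58.0-fold in pool 2.

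Of the talins and kindlins, 1 gene each held nearly all the RNA. Fermt3 encodes kindlin-3, the kindlin of blood cells (chromosome 19, 6998958 to 7019469), and was at 226 and 218 RPKM, the second highest mean of the set. Fermt1, the epithelial kindlin, had 3 reads in pool 1 and 0 in pool 2, and the broadly expressed Fermt2 had at least 2 and 0, so Fermt3 made up 99.97% and 100% of kindlin RPKM. Tln1 (chromosome 4, 43531513 to 43562583) was at 93.8 and 77.3 RPKM, while Tln2, the talin of muscle and brain, was listed at 0 and at 0.0623. Ilk, which links β chain tails to actin through PINCH and parvin (chromosome 7, 105736590 to 105742925), was at 69.6 and 70.5 RPKM. Kindlin RNA thus exceeded talin RNA 2.41-fold and 2.82-fold. Ilk shares 3533 bases with Taf10 on the opposite strand, which was at 64.3 and 64.5 RPKM, and since the strand setting of the counting is not given, reads from shared bases cannot be told apart. The same holds for the 360 bases that Tln1 shares with Creb3, the 2581 that Itga4 shares with Cerkl and the 2810 that Itgae shares with Haspin. Pelo, at 8.09 and 13.1 RPKM, lies within Itga1 on the same strand.

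In the order by mean, 7 of 16 neighbouring pairs of detected genes had overlapping ranges over the pools. Itgal overlapped both Fermt3 and Itgb2, whose own ranges were apart, and Itga4 likewise overlapped both Ilk and Itgb1. The steps from Itgb7 to Fermt3, from Itgb2 to Itgb3 and from Itgb1 to Itgae did not overlap. With 2 pools no test of these steps was made.

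Because an integrin needs an alpha and a beta chain, the RPKM of each beta chain was set against the sum of its known alpha partners. For β2 the amounts were nearly equal in RPKM, though not in reads: the partner sum was 204 RPKM against 201 for Itgb2 in pool 1 and 234 against 208 in pool 2, a ratio of 1.07 ± 0.0805 (SD, n = 2), with Itgal supplying 98.7% and 98.1%. In reads not divided by length the β2 ratio was 1.95, and in reads per coding base 1.25. For β1 the 12 partners summed to 77.9 and 98.2 RPKM, a ratio of 1.36 ± 0.209 to Itgb1, and Itga4 supplied 76.2% and 76.9%. The β1 ratio was 2.77 in reads and 2.13 per coding base. Without Itga4 and Itgav, which also pair with other beta chains, the β1 ratio was 0.219.

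For β7 and β3 the beta chain was in large excess. Itga4 and Itgae together reached 67.0 and 87.8 RPKM, so Itgb7 exceeded both its partners 9.38-fold in pool 1 and 7.13-fold in pool 2, although Itga4 is counted here in full and is shared with β1. Itgb3 exceeded the sum of Itgav and Itga2b 14.9-fold and 15.1-fold, a comparison added after its level was seen. The summed RPKM of all alpha chains was 290 and 347, against 996 and 1033 for all beta chains. The plot of beta chains beside their partners shows nearly equal bars for β2 and unequal bars for β7 and β3.

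**Figure D2:**
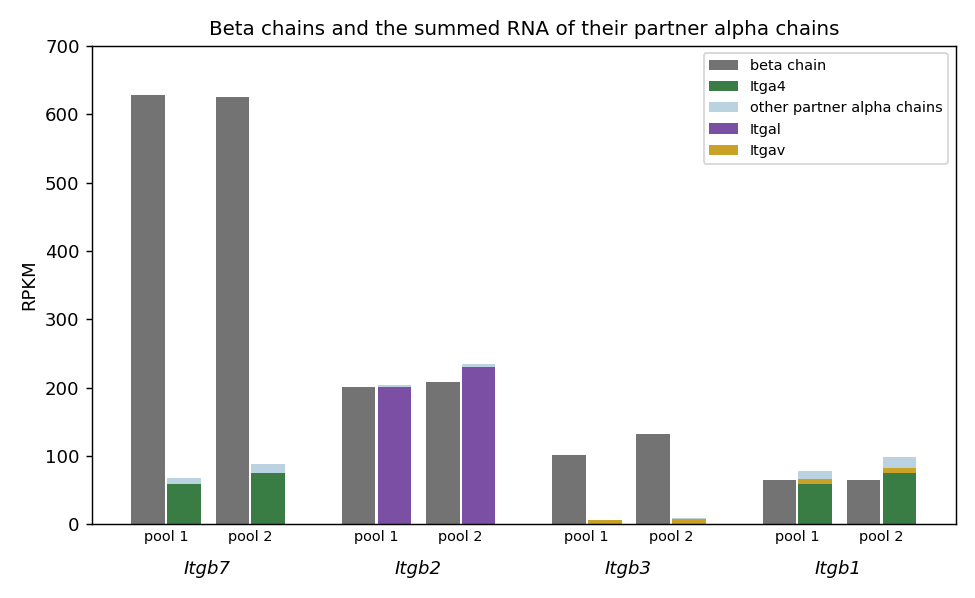
RPKM (linear axis from 0) of 4 beta chains as grey bars, each beside the stacked RPKM of its partner alpha chains in the same pool (Itga4 is drawn in full under both Itgb7 and Itgb1, and Itgav under both Itgb3 and Itgb1). The β7 bars exceed their alpha bars 9.38-fold and 7.13-fold, and the β2 ratio of alpha to beta is 1.07.

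The size of the β7 excess depended on how length was treated. The length behind the Itga4 value is 9832 bases, of which 3096 are coding, and that behind the Itgb7 value is 2674, of which 2418 are coding. In reads not divided by length, the mean ratio of partners to Itgb7 was 0.423 in place of 0.123, and in reads per coding base, a scale added after the values were seen, it was 0.328. Itgb7 remained the larger on each scale in both pools, by 2.10-fold at the least. For Itgb3 the 2 scales gave 0.0404 and 0.0305 in place of 0.0665, where the reads of Itgav are a lower bound, as its length may be a multiple of the 3527 bases used. RNA levels alone do not give the amount of protein at the surface.

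The high Itgb3 was set beside markers of megakaryocytes and platelets, and osteoclast genes were not compared. The other 10 megakaryocyte and platelet genes summed to 1.69 RPKM in pool 1 and 5.72 in pool 2, against 101 and 132 for Itgb3. Pf4 and Gp9, the highest of these besides Itgb3 and Itga2b, were at 0.673 and 1.801 RPKM and at 0.0610 and 1.803, and none of the 10 was detected. Itga2b, whose product forms the platelet receptor with β3, was 2.75-fold higher in pool 2 (95% counting interval 1.94 to 3.94, from 46 and 124 reads), and the 10 other markers summed 3.39-fold higher there. Itgb3 itself was 1.31-fold higher in pool 2 (1.28 to 1.34). The part of platelet RNA in the Itga2b difference was not tested.

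Between the pools, the lower chains of the set differed most. None of the 17 was 2-fold apart, and with 2.56% of all detected genes past that fold, none among 17 is near the background. At a lower fold, 4 of the 17 were 1.5-fold or more higher in pool 2, and none was 1.5-fold higher in pool 1, against 5.86% and 2.60% of all detected genes. Itgam was 1.77-fold higher in pool 2 (95% counting interval 1.49 to 2.11), Itgb5 1.75-fold (1.33 to 2.33), Itga5 1.67-fold (1.42 to 1.97) and Itgae 1.60-fold (1.46 to 1.77). Among the genes not detected, Itgb4 was 4.76-fold higher in pool 2 (2.83 to 8.41, from 18 and 84 reads). Itgax, also not detected, was 2.03-fold higher in pool 1 (1.04 to 4.16, from 29 and 14 reads). These intervals cover counting error only, and with 1 library a side there is no replicate check.

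In direction, 14 of the 17 were higher in pool 2, where 57.3% of all detected genes were, and the median log2 ratio of pool 2 to pool 1 was 0.20, against 0.04 for all detected genes. The 3 that were higher in pool 1 were Tln1, 1.21-fold (1.19 to 1.24), Fermt3, 1.04-fold (1.01 to 1.07), and Itgb7, whose interval includes 1. All 9 detected alpha chains were higher in pool 2, among them Itga4, 1.27-fold (1.24 to 1.30), and Itgal, 1.14-fold (1.12 to 1.17). Of the 14, the intervals of Itgav (0.9987 to 1.30), Itga2 (0.875 to 1.39), Ilk (0.959 to 1.07) and Itgb1 (0.977 to 1.05) include 1. The plot of ratio against level shows the larger ratios among the less abundant chains.

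**Figure D3:**
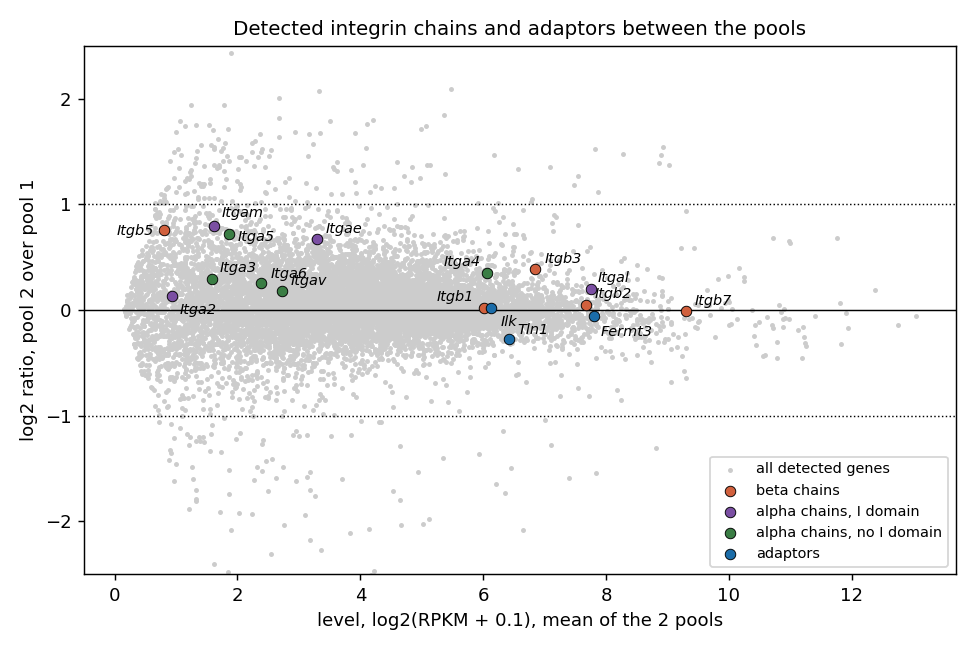
Log2 ratio of pool 2 to pool 1 against the mean level on the log2(RPKM + 0.1) scale, for the 17 detected genes of the set (coloured by role) over all 11013 detected genes in grey, of which 24 lie outside the axis. Dotted lines mark 2-fold, and the highest coloured point is Itgam, at a log2 ratio of 0.80.

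Some of these chains are also expressed by other marrow cells, whose markers differed between the pools. Itgam is a myeloid chain, and of the 16 detected neutrophil and monocyte genes 15 were higher in pool 2, 7 of them at least 2-fold, with S100a8 at 288 and 755 RPKM and S100a9 at 324 and 842. The list sum was 2.29-fold higher in pool 2, against 1.77-fold for Itgam. Within the list, Cd14 was at 0.529 and 0.370 RPKM, Csf1r at 2.04 and 2.17, and Fcgr3 at 6.03 and 7.12. The part of neutrophil or monocyte RNA in the Itgam difference was not tested. Itgax was 2.03-fold higher in pool 1 (1.04 to 4.16, from 29 and 14 reads), whereas the 11 other dendritic cell genes, led by Cd74 and H2-Aa, summed to 344 RPKM in pool 1 and 506 in pool 2. Nearly all of that sum was Cd74, at 200 and 230 RPKM, H2-Aa, at 76.9 and 159, and H2-Ab1, at 58.5 and 108. The next highest, Xcr1, was at 2.04 and 2.26 RPKM. Of the 6 detected, 5 were higher in pool 2 and 1, Siglech, was lower. The lowest of that list, Clec9a and Cd209a, were at 0.0150 and 0.199 RPKM and at 0.0667 and 0.306. The part of dendritic cell RNA in the Itgax level was not tested.

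Markers of lymphocytes and of the niche were read as well. T cells also express Itgal, Itga4, Itgae and Itgb7, and the sum of 12 T cell genes, led by Trbc2 and Lat, was 1253 RPKM in pool 1 and 1470 in pool 2, with Cd8a listed at 0. Of the 11 detected T cell genes 10 were higher in pool 2, and 4 were at least 1.5-fold higher, against 57.3% and 5.86% of all detected genes. Cd3g was at 104 and 195 RPKM. Some of these genes are also transcribed in ILC progenitors, and the part of T cell RNA in the levels of these chains was not tested. B and plasma cell genes, led by Ighm and Igkc, summed to 665 and 473 RPKM. Stromal and endothelial genes, led by Pecam1 and Col1a1, summed to 99.4 and 31.9. That difference lay in matrix genes such as Col1a1, at 40.5 and 0.889 RPKM, and Col1a2, at 18.7 and 0.451, whereas Pecam1 was at 21.2 and 26.5. The endothelial genes Cdh5, at 0.0745 and 0.0759 RPKM, Kdr, at 0.0635 and 0.0462, and Emcn, at 0.0677 and 0.104, were far lower than Pecam1.

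Genes that regulate integrin activation, among them some that restrain it, were present as a whole group. All 23 listed genes were detected, against 40.5% of all genes. Their median level was 5.65 on the log2 scale, against 3.86 for all detected genes. The highest were Skap1, an adaptor of integrin activation in T cells, at 215 ± 10.6 RPKM, Slc3a2, the CD98 heavy chain that binds β tails, at 168 ± 3.76, and Flna, the filamin that competes with talin for the tail, at 118 ± 5.94. The talin recruiter Apbb1ip (RIAM) was at 93.4 ± 4.39 RPKM, the GTPase Rap1b at 91.9 ± 8.73 and the Rap1 effector Rassf5 (RAPL) at 114 ± 5.93. The lowest was Rapgef3, a cyclic AMP-driven Rap1 exchange factor, at 1.61 ± 0.549. None of the 23 was 2-fold apart between the pools, and with 2.56% of all detected genes past that fold, none is near the background.

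Of the 27 genes that link bound integrins to actin and signalling, 22 were detected, against 40.5% of all genes. Their median level was 5.14, against 3.86 for all detected genes. Zyx, which encodes the focal adhesion protein zyxin, led at 244 ± 41.2 RPKM, ahead of Csk, the kinase that restrains Src kinases, at 235 ± 9.15 and the actin regulator Vasp at 197 ± 10.7. The lowest was Parva, at 0.0333 and 0 RPKM. None of the detected linkage genes was 2-fold apart either, and with 2.56% of all detected genes past that fold, none is near the background.

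In several families of this machinery a few genes held nearly all the RNA, as they did among the talins and kindlins; these families were picked after their values were seen. Parvg, the parvin of blood cells, made up 99.3% and 99.0% of parvin RPKM, and Lims1 made up 100% and 99.8% of the PINCH pair. Ptk2b, which encodes Pyk2, was at 71.0 and 70.1 RPKM against 4.10 and 4.13 for Ptk2, which encodes the focal adhesion kinase of adherent cells. Nedd9 made up 99.7% of its pair with Bcar1 in either pool. The lead was smaller in the paxillin family, where Lpxn, the leukocyte paxillin, held 63.9% and 71.5% of the RPKM. Lpxn was at 105 and 143 RPKM beside Pxn at 58.7 and 56.7. The plot of related genes by family shows the leading gene of each above the others in both pools.

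**Figure D4:**
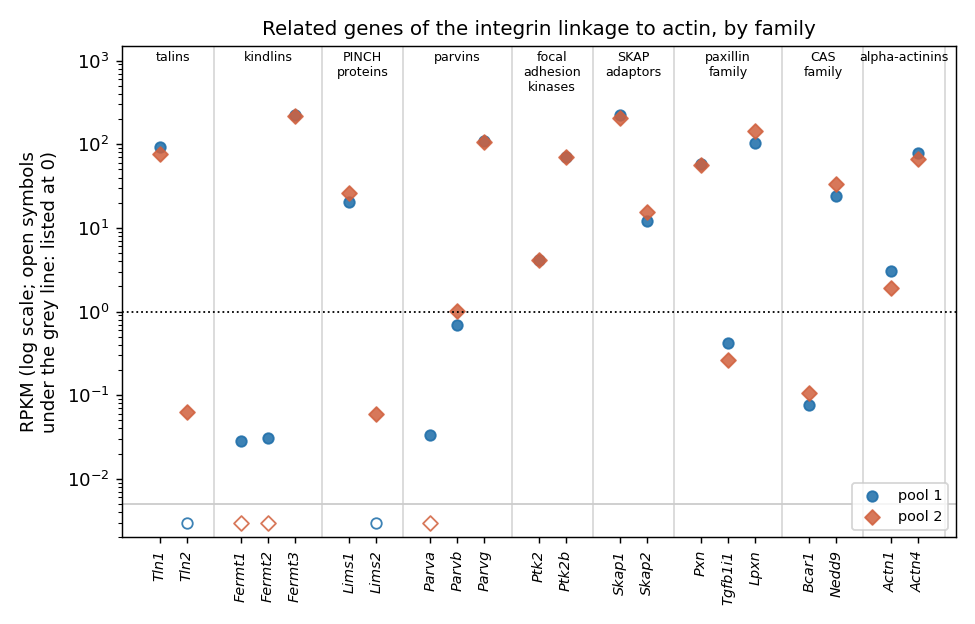
RPKM (log axis) of related genes in 9 families of the integrin linkage to actin, with a circle for pool 1 and a diamond for pool 2. In each family the leading gene is the same in both pools, from Tln1 and Fermt3 to Actn4, and open symbols under the grey line are listed at 0.

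Genes for integrin ligands were read in the same cells. Of 30 listed ligand genes 10 were detected, near the 40.5% of all genes, with a median level of 4.32 against 3.86 for all detected genes. Tgfb1, whose latent form is bound by αv integrins, was highest at 126 ± 13.5 RPKM, followed by Mfge8, a bridging ligand of αvβ3 and αvβ5, at 80.4 ± 13.9 and the LFA-1 ligand Icam2 at 79.9 ± 6.21. Vtn, Fgb and Fgg were listed at 0. Madcam1, the ligand of α4β7, was at 0.0348 and 0.426 RPKM, Vcam1 at 2.49 and 2.12, and Cdh1, the ligand of αEβ7, at 0.269 and 0.354. Emilin1, another ligand of α4β1, was at 18.6 and 19.8 RPKM. None of the detected ligand genes was 2-fold apart on the log2(RPKM + 0.1) scale, which is near the background of 2.56% of all detected genes. The largest ratio was that of Fn1, at 2.67 and 5.31 RPKM. Col1a1, a stromal collagen gene below the threshold in pool 2, was at 40.5 and 0.889 RPKM.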

How the data were processed

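RNA of sorted ILC2 progenitors was sequenced in 2 libraries of 1 group, each a pool of 8 mice, from 100 ng of total RNA with the TruSeq kit, per the labels' protocols. The authors deposited RPKM values, which divide reads by gene length and library size. Without role or order, edgeR 3.8.2, edgeR 3.22.0, featureCounts, CASAVA 1.8.2 and the mm10 build are listed per the submitters' processing notes. For the aligner, strand setting and annotation release, no statement was found in the sources used here. Files follow the sample of their deposit; 0 of 2 column headings named their own sample. With 2 pools of 1 group no test was made.

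Library totals were found by scanning for the total at which single-exon genes of known length gave whole reads. For 206 of 206 listed genes above 0 in both pools a whole length between the longest coding sequence and the larger of 1.5 times the annotated exon length and 2 times the coding length gave whole reads within rounding, and for 1 of 206 with totals wrong by 1 part in 1000. The shortest such length was used, so reads are lower bounds, and for 6 of 31 genes of the set a multiple also stays within the annotated length. The recovery was tested on simulated data with known reads. Ratio intervals are exact 95% binomial (Clopper-Pearson) and cover counting error only.

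Detection was 1 RPKM in both pools, levels and ratios used log2(RPKM + 0.1), which understates the ratio of low genes, and ratios beside an interval are of RPKM without it. Gene coordinates came from RefSeq (GRCm38.p6) by Entrez ID and tails from GENCODE M21, the principal or longest complete coding transcript of each gene. Python 3.11.15, pandas 2.3.3, SciPy 1.17.1 and Biopython 1.88 were used. The genes, lists and comparisons were chosen with earlier results of these data known. All genes of the set are named; of 3 further lists the 3 highest and the lowest are named, and any detected gene 2-fold apart; of 9 cell type lists the 2 highest and any of the set. Others were chosen after their values were seen. Hbb-bt and Jchain were not matched and are not analysed here.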

Additional observations from a re-analysis of the deposited data

How the results depend on the processing

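With detection at 5 RPKM 11 of the 32 genes were detected, with no filter 31 were above 0 in either pool, and the other thresholds and scalings tried stayed within 1.5 times the count of 17. The median level of the detected genes, 6.01 (log2), was 4.65 at 0.5 RPKM, 6.41 at 5 RPKM, 0.93 with no filter, 5.71 with each pool scaled to the same sum (TPM scale), and 4.83 to 5.89 in single pools. In place of 0 genes 2-fold apart there was 1 at 0.5 RPKM and 1 on the TPM scale, 2 with no filter (Itga2b and Itgb4), and 4 at 1.5-fold. The other pseudocounts, centring, and intervals wholly past 2-fold left it at 0, each counted over the detected genes only. Below the threshold, the intervals of Itgb4 (2.83 to 8.41, 18 and 84 reads) and Tln2 (3.38 or more, 0 and 14 reads) lay wholly past 2-fold. The median log2 ratio stayed above 0 in each of the 7 alternatives, from 0.050 at 5 RPKM to 0.24 on the TPM scale.

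The ratio of alpha partners to beta chain in reads not divided by length, and in reads per coding base (added after seeing the data), was 2.77 and 2.13 for Itgb1, 1.95 and 1.25 for Itgb2, 0.423 and 0.328 for Itgb7 and 0.0404 and 0.0305 for Itgb3. Without Itga4 and Itgav it was 0.219 for Itgb1. The TPM scale moved 26 of 32 gene levels by more than 1 SD, by the factor of 2.07 or 2.10 common to all genes of a pool. Precision is limited by 2 pools, and for genes under 1 RPKM by reads. No paired analysis was possible because there is 1 group.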
